A study of Mus musculus with 6 samples.

Results

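The 49 autophagy and lysosome genes described here are genes of the autophagosome, its cargo receptors, the transcription factors TFEB and TFE3, and the membrane proteins, hydrolases and proton pump of the lysosome. They were chosen by gene symbol, and each of the 49 matched 1 row of a table of 56691 genes. RNA came from 4T1 cells, a mouse mammary carcinoma line grown in culture, in 2 groups of 3 libraries. The first group received KIRA6, an inhibitor that docks on the kinase of the stress sensor IRE1α and dampens its RNase, at 1 µmol/L for 4 h in fresh complete RPMI medium. The other group received vehicle in the same fresh medium for 4 h, and neither group is described as carrying a genetic change. The labels name 1 cell line and leave unsaid whether replicates came from separate cultures. The p-values therefore reflect the spread between these 6 libraries alone, and that spread may be technical. The question is which transcripts of the tumour cells differed after KIRA6.

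Autophagy encloses cytoplasm in a double membrane, the autophagosome, and delivers it to the lysosome. A kinase complex around ULK1 starts the process, a lipid kinase complex that holds Beclin 1 marks the membrane, and small ubiquitin-like proteins of the ATG8 family (LC3 and GABARAP) are coupled to it and bind cargo receptors such as p62. Lysosomal hydrolases work in the acid made by a proton pump, the V-ATPase, and many of their genes carry a CLEAR element, an E-box that TFEB and TFE3 bind.

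All 49 genes passed the filter of a mean of at least 0.5 FPKM (fragments per kilobase of exon, scaled to the library's total) over the 6 libraries, and their means ran from 1.08 to 300.2 FPKM. The KIRA6 libraries held an estimated 18223450 to 21352350 fragments assigned to genes, and the vehicle libraries 16500000 to 18598600. Keratin and adhesion genes of epithelial cells summed to 1612 to 1714 FPKM in KIRA6 and 1357 to 1493 FPKM in vehicle libraries, and of 6 such genes Krt14 and Epcam were called higher and 0 lower. Krt14 averaged 162 FPKM with KIRA6 and 22.9 FPKM with vehicle. Krt18 alone went the other way, at 500 and 597 FPKM, with all KIRA6 libraries below the vehicle libraries, and was not called. Vehicle replicate 3 and KIRA6 replicate 1 stood apart on the second principal component, at −55.9 and 44.5, against −8.0 to 13.0 in the other libraries. That component held 35.1% of the variance and the first, on which the groups lay on either side of 0, 56.0%. The same libraries also lay nearest the other group on the first component. KIRA6 replicate 1 was at 11.0 (42.0 and 48.6 for replicates 2 and 3) and Vehicle replicate 3 at −10.2 (−47.7 and −43.8 for replicates 1 and 2).

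Of the 49 genes 16 rose with KIRA6 and 0 fell, by limma on log2(FPKM + 0.5) at an adjusted p under 0.05. Among all 11778 genes tested, 15.6% rose, 7.98% fell and 23.6% were called in either direction, against 32.7% of the 49 that rose. The 49 were chosen with earlier results of these data known, so their shares, here and by role below, are descriptive. At an unadjusted p under 0.05 limma had 25 higher and 2 lower, with no count over all tested genes to set beside them. Counts at that threshold, here and by role and list below, therefore have no background to be read against. Limma-voom on estimated fragments called 16 higher (32.7%) and 0 lower, against 16.2% and 7.96% of all tested genes in that fit. The log2 fold change was above 0 for 62.2% of all tested genes. The lowest KIRA6 library lay above the highest vehicle library for 25 of the 49 genes (51.0%, against 27.7% of all tested genes), and the reverse held for 1 (2.04%, against 14.1%). The median log2 fold change of the 49 was 0.55, beside 0.16 over all tested genes. Median-ratio scaling moved the median of all tested genes from 0.16 to −0.0084 and that of the 49 to 0.37, with 12 called higher and 1, Atg16l1, lower. Over all tested genes this scaling called 1296 higher and 1438 lower, beside 1843 and 940 without it. Without Vehicle replicate 3 and KIRA6 replicate 1 together, 31 of the 49 (63.3%) were called higher and 7 (14.3%) lower, against 35.9% and 20.2% of all tested genes in that fit. The 7 were Ctsl, Atg16l1, Ctsz, Atp6v1h, Wipi2, Atg5 and Cd63, at adjusted p from 0.00164 (Ctsl) to 0.0262 (Cd63). Dropping libraries by their distance from the others narrows the spread within groups by construction, so these p-values give no support for a fall. As these are bulk RNA samples, a change in RNA per cell and a change in the share of cells that hold the RNA cannot be told apart.

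**Figure D1:**
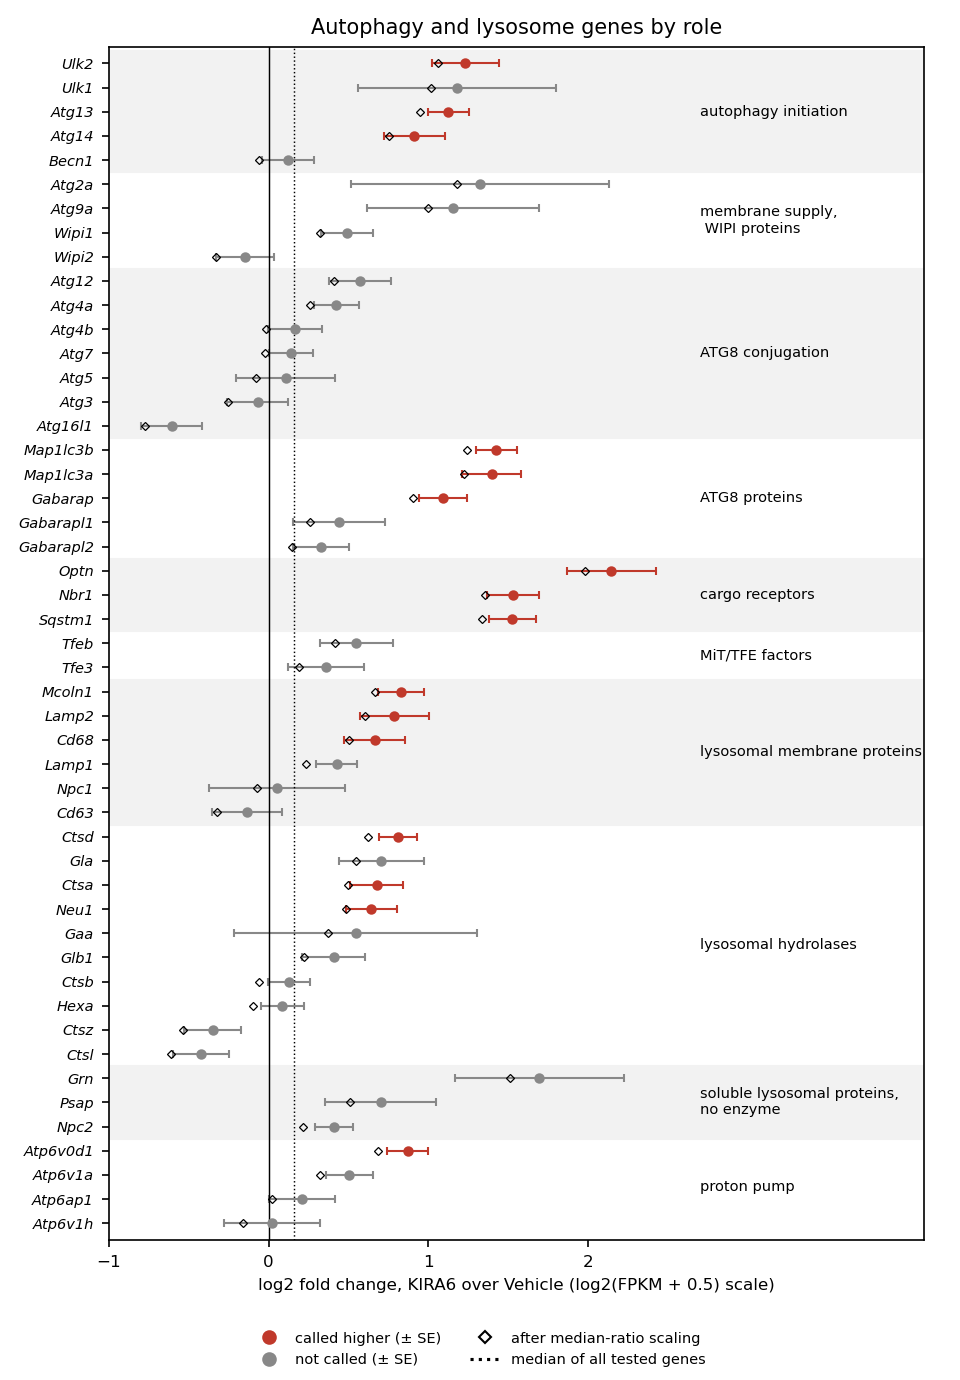
Log2 fold change, KIRA6 over vehicle, for the 49 genes by role, with the limma standard error as bars; filled circles in red passed the test and those in grey did not, open diamonds give the value after median-ratio scaling, and the dotted line is the median of all tested genes (0.16). The 3 cargo receptors lie between 1.52 and 2.14, while the 7 genes of the coupling machinery lie between −0.61 and 0.57.

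Cargo receptors, which link ubiquitin-marked cargo to ATG8 proteins, rose in 3 of 3 cases, while 15.6% of all tested genes rose. Optn, which encodes optineurin, a receptor for damaged mitochondria and bacteria (chromosome 2, 5025453 to 5068862 on GRCm39), had 6.43, 8.69 and 10.6 FPKM in the KIRA6 libraries, against 1.32, 1.08 and 2.34 FPKM in the vehicle libraries. Every KIRA6 library was above every vehicle library, and the log2 fold change of 2.14 ± 0.28 (SE, adjusted p = 0.00326) was the largest of the 49. Sqstm1, which encodes p62 (chromosome 11, 50090193 to 50101654), had 353, 314 and 295 FPKM with KIRA6, against 117, 119 and 98.2 FPKM with vehicle. Its groups were also far apart, and with 321 ± 29.5 FPKM in KIRA6 and 111 ± 11.3 FPKM in vehicle libraries (SD, n = 3 each) it was the most abundant receptor. The log2 fold change was 1.52 ± 0.15 (adjusted p = 0.00139). Mrnip, on the opposite strand and overlapping Sqstm1, averaged 4.44 FPKM with KIRA6 and 0.64 FPKM with vehicle. The strand setting of the counting is not given in the sources used here, so reads of overlapping genes on opposite strands may be shared. Nbr1, a receptor related to p62, had 14.7, 14.7 and 19.5 FPKM in KIRA6 libraries, against 4.93, 5.12 and 5.75 FPKM in vehicle libraries, with no overlap and a log2 fold change of 1.53 ± 0.16 (adjusted p = 0.00174). These 3 calls held in each of the 20 alternatives.

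The ATG8 proteins split, with 3 of 5 called higher (60%, against 15.6% of all tested genes). Map1lc3b, the LC3 gene most used as a marker of autophagosomes (chromosome 8, 122317100 to 122325499), had 26.7, 29.3 and 26.9 FPKM with KIRA6, against 9.15, 10.8 and 9.95 FPKM with vehicle, a 2.76-fold ratio of means. Libraries of 1 group lay close together and the groups did not overlap (log2 fold change 1.42 ± 0.13, adjusted p = 0.00116). Map1lc3a, a second LC3 gene, was lower in level but moved by about as much, with 10.9, 15.6 and 12.6 FPKM in KIRA6 and 4.09, 4.31 and 5.47 FPKM in vehicle libraries (log2 fold change 1.40 ± 0.18, adjusted p = 0.00352). Gabarap was the most abundant of the family, with 201, 175 and 151 FPKM in the KIRA6 libraries, against 84.9, 78.8 and 80.8 FPKM in the vehicle libraries. It also showed no overlap (log2 fold change 1.09 ± 0.15, adjusted p = 0.00391). Gabarapl1 had 32.8, 23.4 and 19.8 FPKM with KIRA6 and 21.3, 22.7 and 12.3 FPKM with vehicle, and its groups overlapped (adjusted p = 0.312). Gabarapl2, with 49.6, 39.1 and 37.3 FPKM in KIRA6 and 36.3, 35.7 and 27.8 FPKM in vehicle libraries, had groups just apart and was not called (adjusted p = 0.221). The summed level of the 5 genes was 247 to 321 FPKM with KIRA6 and 136 to 156 FPKM with vehicle. Whether the members that were called differ in response from Gabarapl1 and Gabarapl2 was not tested. Zcchc14, which overlaps Map1lc3b on the opposite strand, averaged 6.79 FPKM with KIRA6 and 6.64 FPKM with vehicle.

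**Figure D2:**
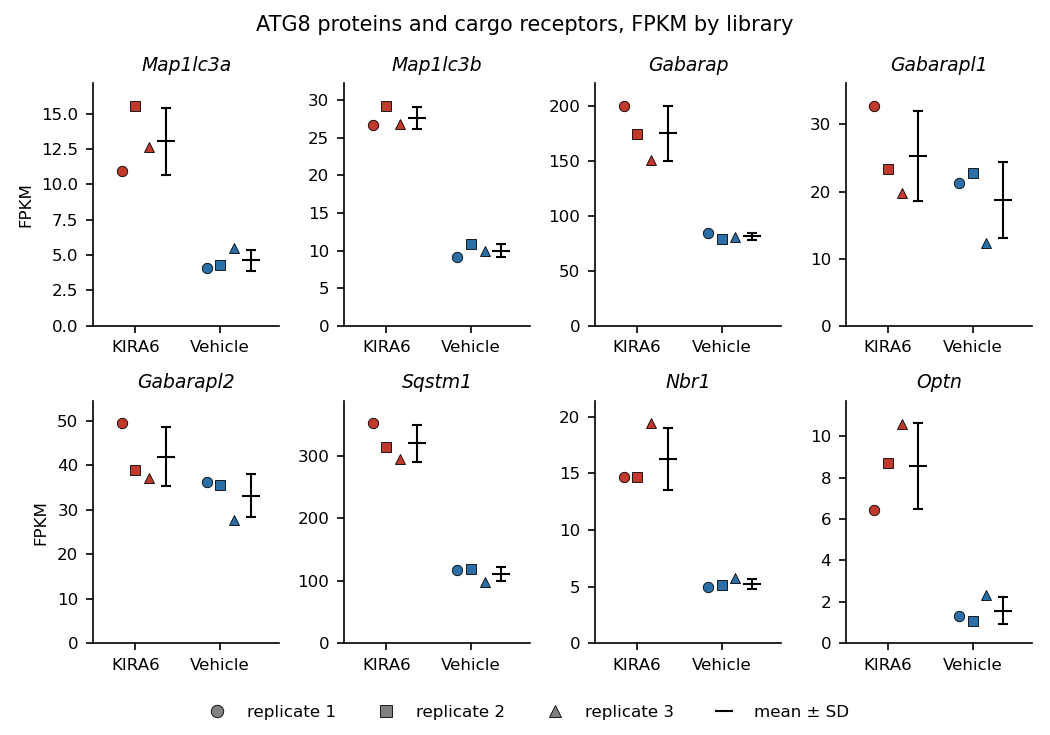
FPKM of the 5 ATG8 genes and 3 cargo receptors in each library (KIRA6 red, vehicle blue; symbols mark the replicate number) with the group mean and SD beside the points. For Map1lc3a, Map1lc3b, Gabarap, Sqstm1, Nbr1 and Optn the KIRA6 libraries all lie well above the vehicle libraries, while those of Gabarapl1 overlap.

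Initiation genes rose in 3 of 5 cases (60%, against 15.6% of all tested genes). Atg13, a scaffold of the ULK kinase complex (chromosome 2, 91504963 to 91540921), had 10.3, 9.45 and 9.94 FPKM with KIRA6, against 4.25, 3.98 and 4.6 FPKM with vehicle, a log2 fold change of 1.13 ± 0.13 (adjusted p = 0.0023). Ulk2, a kinase that shares the role of ULK1, had 7.25, 8.46 and 11.7 FPKM in KIRA6 libraries and 3.11, 3.38 and 4.16 FPKM in vehicle libraries, again with no overlap (1.23 ± 0.21, adjusted p = 0.00821). Atg14, which directs the Beclin 1 lipid kinase complex to the sites where autophagosomes form, had 4.54, 3.91 and 3.92 FPKM with KIRA6 and 2.24, 2.29 and 1.43 FPKM with vehicle (0.91 ± 0.19, adjusted p = 0.0168). The groups of Atg14 did not overlap, but its call was lost without KIRA6 replicate 2 (0.067) or KIRA6 replicate 3 (0.055) and with quantile normalization (0.125). Becn1, which encodes Beclin 1 itself, had 14.7, 11.9 and 12.8 FPKM in KIRA6 and 13.0, 13.1 and 10.1 FPKM in vehicle libraries. Its log2 fold change was 0.12 ± 0.16 (95% interval −0.26 to 0.51, adjusted p = 0.631). Ulk1 is described with the genes that follow KIRA6 replicate 1 and Vehicle replicate 3.

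The machinery that couples ATG8 proteins to lipid had no called member among 7, against 23.6% of all tested genes called in either direction. Its adjusted p ran from 0.0595 to 0.841, and limma-voom called none. Whether so few genes differ from that share was not tested. At an unadjusted p under 0.05, 2 were higher (Atg4a and Atg12) and 1 lower (Atg16l1). Atg7, the enzyme that activates ATG8 proteins, had 3.14, 3.31 and 3.43 FPKM with KIRA6 and 2.67, 3.05 and 3.13 FPKM with vehicle (log2 fold change 0.14 ± 0.14, 95% interval −0.19 to 0.46, adjusted p = 0.511). Atg5, part of the complex that completes the coupling, had 24.5, 17.0 and 14.3 FPKM in KIRA6 and 21.2, 20.5 and 10.9 FPKM in vehicle libraries. The groups of Atg7 were only just apart, at 3.14 FPKM for the lowest KIRA6 library and 3.13 FPKM for the highest vehicle library. Those of Atg5 overlapped, and its direction turned without Vehicle replicate 3 (−0.20) or KIRA6 replicate 1 (−0.11) and under median-ratio scaling (−0.077). Atg16l1, the partner that places that complex on membranes, was the 1 gene of the 49 whose KIRA6 libraries all lay below the vehicle libraries. It had 4.46, 3.18 and 2.9 FPKM with KIRA6, against 5.48, 6.16 and 5.0 FPKM with vehicle, a log2 fold change of −0.61 ± 0.19 that missed the threshold (adjusted p = 0.0595). It passed under median-ratio scaling (0.0326) and without KIRA6 replicate 1 (0.0319) or Vehicle replicate 3 (0.0498). Without Vehicle replicate 2 its adjusted p was 0.198. Atg3, the enzyme that passes ATG8 proteins to lipid, and Atg4b, which trims them, had log2 fold changes of −0.07 and 0.17.

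The WIPI and membrane supply genes had 0 called of 4 by limma, against 23.6% of all tested genes called in either direction. Limma-voom called 0, and 1, Wipi1, had an unadjusted p under 0.05. Wipi1, which binds the lipid made by the Beclin 1 complex, had 5.54, 5.79 and 6.61 FPKM with KIRA6, against 4.56, 4.45 and 3.38 FPKM with vehicle, with no overlap (log2 fold change 0.49 ± 0.16, adjusted p = 0.0729). Wipi2, its relative, had 14.1, 11.3 and 10.8 FPKM in KIRA6 and 14.3, 15.3 and 10.8 FPKM in vehicle libraries, which overlapped (adjusted p = 0.612).

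Tfeb and Tfe3, which encode factors that bind CLEAR elements and are controlled largely by moving into the nucleus, were low and not called. Tfeb had 1.13, 1.38 and 1.96 FPKM with KIRA6 and 0.64, 0.74 and 1.2 FPKM with vehicle, and Vehicle replicate 3 lay above KIRA6 replicate 1 (log2 fold change 0.55 ± 0.23, adjusted p = 0.133). Tfe3 had 3.5, 4.87 and 4.84 FPKM in KIRA6 libraries and 2.52, 3.06 and 4.56 FPKM in vehicle libraries, with the same overlap (0.36 ± 0.24, adjusted p = 0.319). Limma-voom called neither, and 1 of the 2, Tfeb, had an unadjusted p under 0.05. Without both libraries that stood apart, Tfeb had an adjusted p of 0.00689 and Tfe3 of 0.00501, in a fit that called 35.9% of all tested genes higher. For both genes the dropped libraries were the lowest KIRA6 and the highest vehicle library. Dropping them raises the log2 fold change by construction, so those adjusted p-values give no support for a change.

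Lysosomal hydrolases rose in 3 of 10 cases (30%, against 15.6% of all tested genes by limma) and fell in 0, by limma and by limma-voom. The 10 genes had a median log2 fold change of 0.48, and 1, Ctsl, was lower at an unadjusted p under 0.05. Ctsd, the aspartic protease cathepsin D (chromosome 7, 141929648 to 141941775 on GRCm39), had 134, 129.6 and 136 FPKM with KIRA6, against 74.1, 75.9 and 77.3 FPKM with vehicle. Its libraries were tight within each group and far apart between them, with a log2 fold change of 0.81 ± 0.12 (adjusted p = 0.00467) that was called in all 20 alternatives. Gm49369, which overlaps Ctsd on the same strand, averaged 0.91 FPKM with KIRA6 and 0.563 FPKM with vehicle. Ctsa, a carboxypeptidase that also protects the sialidase and galactosidase of the lysosome, had 14.3, 16.3 and 18.2 FPKM in KIRA6 and 9.08, 9.09 and 11.8 FPKM in vehicle libraries (0.68 ± 0.17, adjusted p = 0.0283). Neu1, that sialidase, had 4.32, 3.96 and 3.33 FPKM with KIRA6 and 2.6, 2.16 and 2.12 FPKM with vehicle (0.64 ± 0.16, adjusted p = 0.0293). Neither gene's groups overlapped.

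The calls of Ctsa and Neu1 were lost more easily. That of Ctsa ended without KIRA6 replicate 2 (0.106), KIRA6 replicate 3 (0.0936), Vehicle replicate 1 (0.0969) or Vehicle replicate 2 (0.117), and that of Neu1 without KIRA6 replicate 1 (0.077), KIRA6 replicate 2 (0.116), Vehicle replicate 1 (0.0568) or Vehicle replicate 2 (0.118). Median-ratio scaling ended both (0.0721 for Ctsa and 0.0827 for Neu1). The count of higher hydrolases was then 1, as it was with no filter on low genes (0.0538 for Ctsa and 0.0512 for Neu1) and without KIRA6 replicate 2, Vehicle replicate 1 or Vehicle replicate 2. Ctsa was also not called when rescaled to TPM (0.0722), nor Neu1 with quantile normalization (0.309). Pltp and Neurl2, which overlap Ctsa on the opposite strand, averaged 4.91 and 3.85 FPKM with KIRA6, and 1.92 and 1.79 FPKM with vehicle.

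Of the cysteine cathepsins on the list, Ctsb, Ctsl and Ctsz, 0 were called by limma or limma-voom, against 23.6% of all tested genes called in either direction by limma. Ctsl, cathepsin L, was the most abundant hydrolase of the list, with 209, 180.1 and 168 FPKM in KIRA6 libraries and 269, 277 and 205 FPKM in vehicle libraries. Only KIRA6 replicate 1 reached above the lowest vehicle library, and the log2 fold change was −0.42 ± 0.17 (adjusted p = 0.127). It was past the threshold without Vehicle replicate 3 (0.0364), when rescaled to TPM (0.0419) and with replicate number as a block (0.0242). Median-ratio scaling gave −0.61 (adjusted p = 0.0526). Without Vehicle replicate 2 the adjusted p of Ctsl was 0.357. Ctsz, cathepsin Z, had 112, 93.4 and 84.2 FPKM with KIRA6 and 128, 139 and 102 FPKM with vehicle (−0.35 ± 0.18, adjusted p = 0.206). Ctsb, cathepsin B, had 69.2, 63.2 and 68.5 FPKM in KIRA6 and 61.1, 66.8 and 56.3 FPKM in vehicle libraries, with overlapping groups and a 95% interval of −0.18 to 0.44 for the log2 fold change (adjusted p = 0.526). Of the glycosidases, Gla, Glb1 and Hexa had log2 fold changes of 0.71, 0.41 and 0.09 with adjusted p from 0.0998 to 0.686. The summed level of all 10 hydrolases was 522 to 575 FPKM with KIRA6 and 493 to 598 FPKM with vehicle, and the ranges overlapped. The cargo receptors summed to 325 to 374 FPKM with KIRA6 and 106 to 125 FPKM with vehicle.

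Lysosomal membrane proteins rose in 3 of 6 cases (50%, against 15.6% of all tested genes) and fell in 0 (0 lower at an unadjusted p under 0.05, and 2 higher and 0 lower by limma-voom). Mcoln1, the calcium channel mucolipin 1 (chromosome 8, 3550457 to 3565232 on GRCm39), had 4.09, 3.77 and 4.27 FPKM with KIRA6, against 1.96, 2.33 and 1.9 FPKM with vehicle. The groups were clearly apart, with a log2 fold change of 0.83 ± 0.14 (adjusted p = 0.00887), and of 20 alternatives quantile normalization alone ended the call (0.0744). Lamp2, a main glycoprotein of the lysosomal membrane, had 26.9, 24.1 and 25.8 FPKM in KIRA6 and 17.7, 16.9 and 10.4 FPKM in vehicle libraries (0.79 ± 0.22, adjusted p = 0.0407). Cd68, a related glycoprotein best known from macrophages, had 3.06, 3.8 and 3.41 FPKM with KIRA6 and 1.66, 1.74 and 2.61 FPKM with vehicle (0.66 ± 0.19, adjusted p = 0.0472), from only 36 to 87 estimated fragments per library.

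Both calls were close to the threshold. That of Lamp2 ended without KIRA6 replicate 1 (0.0919), KIRA6 replicate 2 (0.115), KIRA6 replicate 3 (0.116), Vehicle replicate 1 (0.0539) or Vehicle replicate 2 (0.081), that of Cd68 without KIRA6 replicate 1 (0.067), KIRA6 replicate 2 (0.169), KIRA6 replicate 3 (0.124), Vehicle replicate 1 (0.142) or Vehicle replicate 2 (0.164), and both ended with median-ratio scaling (0.0874 for Lamp2, 0.111 for Cd68). Each of these fits left Mcoln1 as the 1 called membrane protein. The correction for GC and length took the log2 fold change of Lamp2 to 0.441 (adjusted p = 0.228), and ended the call of Cd68 too (0.147). With no filter on low genes neither was called (0.0776 for Lamp2, 0.0821 for Cd68). The call of Cd68 also ended with quantile normalization (0.186), rescaled to TPM (0.0927) and by limma-voom (0.0616). Of 6 macrophage markers 3 (Adgre1, Cd163 and C1qa) were at 0 in all libraries, and the 6 summed to 0.50 to 0.85 FPKM with KIRA6 and 0.12 to 0.41 FPKM with vehicle, nearly all of it Lyz2. The 6 fibroblast markers summed to 1.85 to 3.76 FPKM with KIRA6 and 0.44 to 0.75 FPKM with vehicle. Pdgfra made up most of that and was called higher, Lum was at 0 in all libraries, and the highest value of Col1a1 in a library was 0.080 FPKM. The part of RNA from such cells in the values of Cd68 and the other members was not tested.

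Lamp1, the other main glycoprotein and the most abundant of the 49 genes, had 337, 334 and 361 FPKM with KIRA6, against 239, 258 and 273 FPKM with vehicle. Its groups did not overlap, but the log2 fold change of 0.43 ± 0.13 missed the threshold (adjusted p = 0.0565, and 0.0458 without Vehicle replicate 3). Median-ratio scaling gave 0.24 (adjusted p = 0.262), and without Vehicle replicate 1 the adjusted p was 0.191. Cd63, a tetraspanin of late endosomes, had 278, 221 and 175 FPKM in KIRA6 and 269, 265 and 199 FPKM in vehicle libraries, which overlapped (adjusted p = 0.708).

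**Figure D3:**
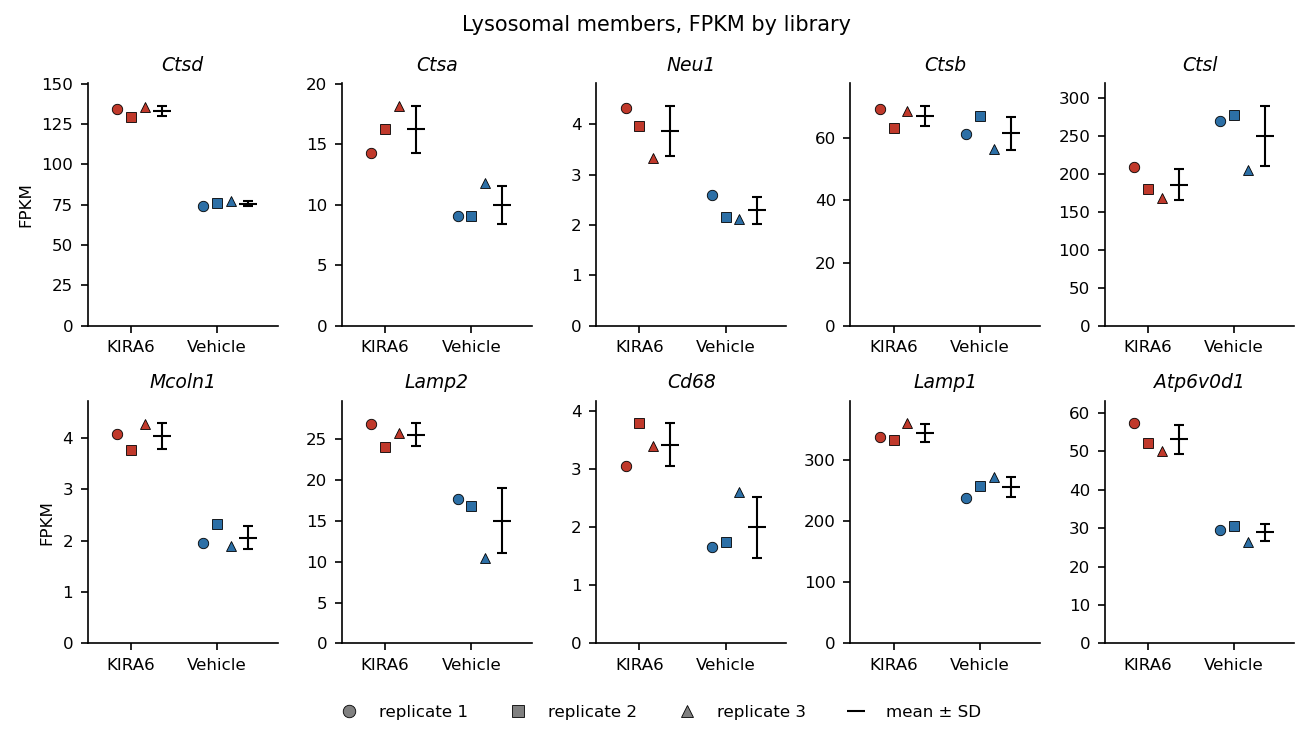
FPKM of 10 lysosomal genes in each library (KIRA6 red, vehicle blue; symbols mark the replicate number) with the group mean and SD. Ctsd, Mcoln1 and Atp6v0d1 show tight groups that lie apart, Ctsb overlaps, and Ctsl is lower in most KIRA6 libraries.

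For Ctsd and Mcoln1 the stretch upstream of the gene start is shown, since both rose and both hold the E-box of the CLEAR element there. Each stretch is the 250 bases before the start, from RefSeq on GRCm38.p6, 5′ to 3′ along the gene, and capitals mark CACGTG or TCACGTG read on either strand. TCACGTG contains CACGTG, so a match to the longer motif is also 1 to the shorter. The Ctsd stretch is chr7:142387828-142388077 on the minus strand and the Mcoln1 stretch chr8:3500269-3500518 on the plus strand.
Ctsd: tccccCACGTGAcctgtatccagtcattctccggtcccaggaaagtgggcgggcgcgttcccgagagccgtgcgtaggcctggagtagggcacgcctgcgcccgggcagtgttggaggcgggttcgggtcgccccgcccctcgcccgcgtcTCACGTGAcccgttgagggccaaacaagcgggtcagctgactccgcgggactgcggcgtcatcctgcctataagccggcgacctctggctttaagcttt
Mcoln1: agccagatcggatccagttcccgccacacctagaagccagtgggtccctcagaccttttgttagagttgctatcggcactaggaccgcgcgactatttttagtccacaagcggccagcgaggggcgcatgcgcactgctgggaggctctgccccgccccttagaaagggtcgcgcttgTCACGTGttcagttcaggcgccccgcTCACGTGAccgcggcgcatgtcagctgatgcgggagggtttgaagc
In Ctsd the matches begin 245 and 99 bases before the start, and in Mcoln1 72 and 46 bases before it. In Ctsa a match begins 13 bases before the later of its 2 listed starts.

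RefSeq promoter windows, from 250 bases before to 50 after a start, were matched for 42 of the 49 genes, in 49 windows. TCACGTG or its reverse complement stood in 12 of these windows (24.5%), against 6.16% of the 10902 windows of tested genes and 3.77% of all 32851 windows. CACGTG stood in 28.6%, 10.4% and 7.15%. Among the members, TCACGTG was in 5 of 17 windows of genes that rose (Ctsd, Atp6v0d1, Mcoln1, Atg14 and Ctsa) and in 7 of 32 windows of genes that were not called, among them Lamp1, Gla, Glb1 and Atp6v1a. No cargo receptor or ATG8 gene had CACGTG in a matched window; Map1lc3a was not matched. The longer CLEAR palindrome, CACGTG with GT directly before it and AC directly after it, was in 0 of 49 windows (0.752% of windows of tested genes), and the forkhead motif TGTTTAC, searched on both strands, in 0 of 49 (2.41%). A match is a description of letters in this window and was not tied to binding.

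The proton pump rose in 1 of 4 cases (25%, against 15.6% of all tested genes). Atp6v0d1, a subunit that joins the membrane part of the V-ATPase to its stalk (chromosome 8, 106251097 to 106292679), had 57.4, 52.1 and 50.1 FPKM with KIRA6, against 29.5, 30.7 and 26.5 FPKM with vehicle. The groups did not overlap, and the log2 fold change of 0.87 ± 0.13 (adjusted p = 0.00515) was called in all 20 alternatives. Atp6v1a, the catalytic subunit, had 20.9, 20.0 and 26.4 FPKM in KIRA6 libraries and 16.5, 14.9 and 15.3 FPKM in vehicle libraries, also apart, but just missed the threshold (0.50 ± 0.15, adjusted p = 0.0509). Median-ratio scaling gave 0.32 (adjusted p = 0.155), and without Vehicle replicate 2 the adjusted p was 0.178. Atp6v1h, a regulatory subunit, and Atp6ap1, an accessory protein of the pump, overlapped between groups, with log2 fold changes of 0.02 and 0.21 and adjusted p of 0.971 and 0.515. None fell by limma, by limma-voom or at an unadjusted p under 0.05.

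The libraries that stood apart also split the groups of some members. In 6 of the 49 genes (12.2%, against 7.78% of tested genes) KIRA6 replicate 1 was at most 0.5 times the mean of the other KIRA6 libraries and Vehicle replicate 3 at least 2 times the mean of the other vehicle libraries. These were Ulk1, Atg2a, Atg9a, Npc1, Gaa and Grn. Ulk1, the kinase that starts autophagy, had 2.19, 7.34 and 8.83 FPKM with KIRA6, against 1.15, 1.38 and 4.98 FPKM with vehicle, so Vehicle replicate 3 lay above KIRA6 replicate 1. Its log2 fold change of 1.18 ± 0.62 was not called (adjusted p = 0.22). Atg2a, a lipid transfer protein that feeds the growing membrane, had 0.84, 5.72 and 6.33 FPKM in KIRA6 and 0.34, 0.60 and 3.45 FPKM in vehicle libraries. Atg9a, a lipid scramblase of the vesicles that seed the autophagosome, had 1.98, 6.12 and 5.76 FPKM with KIRA6 and 0.82, 1.22 and 3.6 FPKM with vehicle. In both, as in Ulk1, the remaining 2 KIRA6 libraries exceeded all vehicle libraries.

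Grn, which encodes the lysosomal and secreted protein progranulin, had 37.2, 83.6 and 97.0 FPKM in KIRA6 libraries and 13.4, 15.0 and 41.7 FPKM in vehicle libraries. Fam171a2, on the opposite strand and overlapping it, averaged 3.22 FPKM with KIRA6 and 0.937 FPKM with vehicle. The log2 fold change of Grn was the second largest of the 49 at 1.69 ± 0.53, with an adjusted p of 0.0606 that passed without KIRA6 replicate 1 (0.0344) or Vehicle replicate 3 (0.0143). Gaa, the acid alpha-glucosidase that breaks down glycogen, had 2.45, 10.4 and 11.9 FPKM with KIRA6 and 2.33, 2.89 and 12.8 FPKM with vehicle, so that its highest library was a vehicle one. Npc1, a cholesterol exporter of the lysosomal membrane, had 0.48, 1.12 and 1.64 FPKM in KIRA6 and 0.56, 0.63 and 2.04 FPKM in vehicle libraries (adjusted p = 0.948). Without both libraries that stood apart, the adjusted p was 3.31e-05 for Ulk1, 2.65e-05 for Atg2a, 6.34e-05 for Atg9a, 1.1e-05 for Grn, 5.37e-05 for Gaa and 0.0127 for Npc1. Choosing libraries to drop by their distance from the others narrows the spread within groups by construction. These 6 genes were also picked by the values of those libraries, so dropping them raises each log2 fold change by construction. The adjusted p-values of these genes in that fit therefore give no support for a change. Median GC content of the longest transcript was 57.0% for these 6 genes and 51.2% for the other 43, with ranges of 45.7% to 60.0% and 37.6% to 63.2%. With the limma fit after GC and length correction Grn was called (log2 fold change 1.51, adjusted p = 0.039). The rest of the 6 were not, at adjusted p from 0.0864 (Atg9a) to 0.811 (Npc1). The part of GC content in the pattern was not tested.

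**Figure D4:**
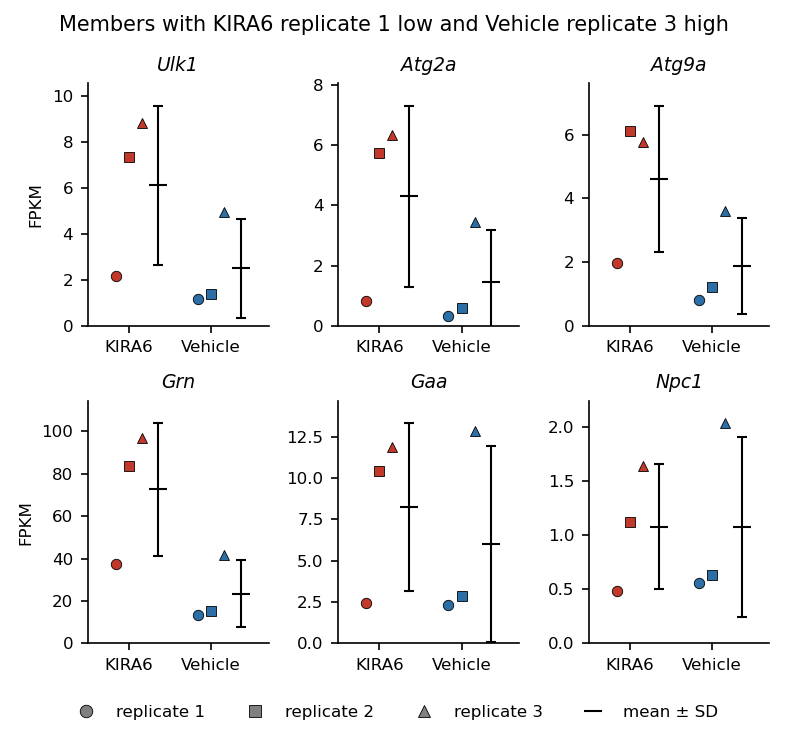
FPKM of the 6 genes in which KIRA6 replicate 1 (red circle) was low and Vehicle replicate 3 (blue triangle) high for their groups, with the group mean and SD (bars that would pass below 0 end at the axis). KIRA6 replicates 2 and 3 lie above all vehicle libraries for Ulk1, Atg2a, Atg9a and Grn, but not for Gaa or Npc1.

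Like Grn, the remaining soluble proteins did not pass the test (0 of 3 called by limma, against 23.6% of all tested genes in either direction). Limma-voom called 1, and 2 were higher and 0 lower at an unadjusted p under 0.05. Psap, the precursor of the saposins that help lipid breakdown, had 123, 198 and 236 FPKM with KIRA6 and 81.4, 96.7 and 169.8 FPKM with vehicle, and Vehicle replicate 3 exceeded KIRA6 replicate 1 (adjusted p = 0.193, and 0.0417 without Vehicle replicate 3). Npc2, which hands cholesterol to NPC1, had 105, 104 and 95.8 FPKM in KIRA6 libraries, against 75.5, 76.0 and 77.7 FPKM in vehicle libraries. The groups did not overlap, and it lay just above the threshold (0.41 ± 0.12, adjusted p = 0.0502, and 0.0498 without Vehicle replicate 3). Limma-voom called Npc2.

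The same roles, with hydrolase sorting added, were followed in 142 other genes, in 8 lists. Of the 122 that passed the filter, 32 rose (26.2%, against 15.6% of all tested genes) and 1 fell (0.82%, against 7.98%). Without both libraries that stood apart, 65 (53.3%) were called higher and 11 (9.02%) lower, against 35.9% and 20.2% of all tested genes in that fit. Median-ratio scaling called 24 higher (19.7%) and 3 lower (2.46%), against 11.0% and 12.2%. The lists were chosen with earlier results of these data known. Their shares, here and by list below, are therefore descriptive and no independent test of the roles. Of 9 other cargo receptors 4 rose (44.4%). Calcoco1, a receptor for parts of the endoplasmic reticulum and Golgi, had 4.54, 5.16 and 6.37 FPKM with KIRA6, against 0.73, 0.62 and 0.97 FPKM with vehicle (2.199 ± 0.19, adjusted p = 0.000994). Tax1bp1, a receptor for protein aggregates, and Bnip3l, a mitochondrial receptor, had log2 fold changes of 1.19 and 0.90. Bnip3l lost its call without KIRA6 replicate 1 (0.0511), KIRA6 replicate 2 (0.0765), KIRA6 replicate 3 (0.0728) or Vehicle replicate 2 (0.0724).

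Of 26 other autophagosome genes 7 rose (26.9%, against 15.6% of all tested genes) and 0 fell (0 lower at an unadjusted p under 0.05 and by limma-voom). Trp53inp1, whose protein binds ATG8 proteins, had 2.44, 2.41 and 2.16 FPKM with KIRA6, against 0.060, 0.10 and 0.070 FPKM with vehicle (2.30 ± 0.14, adjusted p = 0.000478). Zfyve1, which encodes DFCP1, a protein of the sites where autophagosomes form, had 5.06, 4.15 and 5.12 FPKM in KIRA6 and 1.15, 0.98 and 0.94 FPKM in vehicle libraries. Its log2 fold change was 1.79 ± 0.15 (adjusted p = 0.000996). Trp53inp2, a relative of Trp53inp1, had a log2 fold change of 1.76 ± 0.23. The groups of all 3 genes were apart, and their calls held with any 1 library left out.

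Of 34 other tested hydrolases 12 rose (35.3%, against 15.6% of all tested genes) and 1 fell. Lipa, the acid lipase that frees cholesterol and fatty acids, had 5.08, 4.07 and 5.66 FPKM with KIRA6, against 1.65, 1.51 and 1.6 FPKM with vehicle (1.37 ± 0.16, adjusted p = 0.00246). Dnase2a, the acid nuclease, had 2.67, 2.71 and 2.97 FPKM with KIRA6 and 1.2, 1.12 and 0.78 FPKM with vehicle (1.11 ± 0.16, adjusted p = 0.00513). Neither gene's groups overlapped. Hyal2, a hyaluronidase, was the 1 that fell, with 18.6, 17.5 and 16.5 FPKM in KIRA6 libraries, against 23.4, 24.8 and 24.5 FPKM in vehicle libraries (−0.46 ± 0.12, adjusted p = 0.034), and its call ended without KIRA6 replicate 1 (0.0608), KIRA6 replicate 2 (0.124), KIRA6 replicate 3 (0.0977), Vehicle replicate 1 (0.0956) or Vehicle replicate 2 (0.148).

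Among 18 other tested membrane proteins 4 rose (22.2%, against 15.6% of all tested genes) and 0 fell (0 lower at an unadjusted p under 0.05). Ctns, the cystine exporter, had 5.59, 5.39 and 5.51 FPKM with KIRA6, against 1.18, 1.2 and 1.78 FPKM with vehicle (1.68 ± 0.17, adjusted p = 0.00152). Slc17a5, the sialic acid exporter, and Lmbrd1, which acts in the export of cobalamin, had log2 fold changes of 0.75 and 0.75. Slc17a5 lost its call without KIRA6 replicate 2 (0.0565) or Vehicle replicate 2 (0.0567), and Lmbrd1 without KIRA6 replicate 1 (0.05003), KIRA6 replicate 3 (0.0653) or Vehicle replicate 2 (0.0749). Of 3 other soluble proteins 1 rose: Gm2a, the activator protein for ganglioside breakdown, had 13.5, 16.5 and 16.3 FPKM in KIRA6 libraries, against 6.71, 7.02 and 8.24 FPKM in vehicle libraries.

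Of 14 other tested pump subunits 2 rose (14.3%, near the 15.6% of all tested genes) and 0 fell (1 lower at an unadjusted p under 0.05, 0 by limma-voom). Atp6v0e2, a small membrane subunit, had 2.58, 2.91 and 3.2 FPKM with KIRA6, against 0.69, 0.66 and 0.68 FPKM with vehicle (1.53 ± 0.14, adjusted p = 0.00126). Atp6ap2, the prorenin receptor and an accessory protein of the pump, had a log2 fold change of 0.55 ± 0.13 and lost its call without KIRA6 replicate 2 (0.0973), KIRA6 replicate 3 (0.0816), Vehicle replicate 1 (0.0757) or Vehicle replicate 2 (0.0927). Of 13 tested genes for MiT/TFE factors and their regulators 2 rose (15.4%, also near the share of all tested genes) and 0 fell. These were Zkscan3, a repressor of autophagy genes (0.68), and Fnip1, a partner of folliculin in mTORC1 control (0.94). Zkscan3 lost its call without KIRA6 replicate 1 (0.0713), KIRA6 replicate 2 (0.106), KIRA6 replicate 3 (0.0758), Vehicle replicate 1 (0.0646) or Vehicle replicate 2 (0.0718), and Fnip1 without KIRA6 replicate 1 (0.0803), KIRA6 replicate 2 (0.141), KIRA6 replicate 3 (0.13) or Vehicle replicate 2 (0.0891). None of 5 tested genes for the sorting of hydrolases was called, by limma or limma-voom, against 23.6% of all tested genes called in either direction by limma. None had an unadjusted p under 0.05.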

How the data were processed

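The authors deposited FPKM per gene and library, with exonic length and GRCm39 coordinates. Tools listed in the submitters' processing notes are HTSeq 0.6.1, HISAT2 2.2.1, cutadapt 1.9.1 and DESeq2 1.34.0, with GRCm39 as the build. Per the labels' protocols, libraries were oligo(dT)-selected and kept strand by dUTP. Length-scaled FPKM steps of short genes gave the depth: in each library 100% of 607 to 742 values lay within 0.1 fragment of a whole number. Intervals cover the spread between libraries.

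The main test was limma (3.58.1, R 4.3.3) on log2(FPKM + 0.5), two-sided, with an intensity trend and robust moderation. Of 56691 genes, the 11778 whose mean reached 0.5 FPKM were tested, and p-values were Benjamini-Hochberg adjusted over them and called under 0.05. The scale understates changes of low genes. Whether same-numbered libraries pair was not settled: correlations of their deviations were 0.762, −0.469 and 0.738. Deviations from a mean of 3 libraries are tied to each other, so these values cannot decide it. A permutation of 3 against 3 libraries cannot reach 0.05, so none is given.

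Genes and lists were chosen with earlier results of these data known. All called members, a defining member of each role, and up to 3 called genes of each further list with the smallest p are named, except 1 hydrolase that is not reported here; others named by role were chosen after their values were seen. Promoter windows came from RefSeq on GRCm38.p6, with no match for 7 genes, and GC content from GENCODE M21.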

Additional observations from a re-analysis of the deposited data

How the results depend on the processing

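Each of the 16 genes that rose kept its direction in all 20 alternatives, and 10 (Ulk2, Atg13, Map1lc3a, Map1lc3b, Gabarap, Sqstm1, Nbr1, Optn, Ctsd and Atp6v0d1) were called in every 1. All 20 fits used the same libraries or a part of them. The array weights fit and the fit without both libraries that stood apart called far more genes than the main fit. Holding a call in those 2 fits therefore adds little. Over all tested genes, 2783 were called in the main fit. With 1 library left out the count over all genes ran from 1211 to 3392, that of the 49 called higher from 11 to 21 and that called lower from 0 to 2. Over all tested genes 6.94% to 17.5% were then higher and 3.35% to 11.3% lower. Without Vehicle replicate 3 and KIRA6 replicate 1 together the count over all genes was 6610 (4227 higher and 2383 lower), with 31 of the 49 higher and 7 lower. Array weights, whose estimation did not converge, gave 10003, 35 and 10, with 51.3% of all tested genes higher and 33.6% lower. Whether replicate numbers pair the samples was not settled. Deviations of KIRA6 replicate 2 correlated best with those of Vehicle replicate 3, while KIRA6 replicates 1 and 3 correlated best with the vehicle library of the same number. With a replicate block 4423 genes were called, and 27 of the 49 higher (55.1%) and 2 lower (4.08%), against 24.5% and 13.1% of all tested genes. The replicate block with GC and length correction gave 4911, 25 (51.0%) and 4 (8.16%), against 19.7% and 21.9%. Members called lower numbered 2 on the TPM scale, Atg16l1 and Ctsl (4.08%, against 9.09% of all tested genes). After median-ratio scaling there was 1 (2.04%, against 12.2%). The split of all calls was 1132 higher against 1182 lower after quantile normalization, and 1629 against 1703 after correction for GC and length, beside 1843 and 940.

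Among the called and defining genes, the estimates that changed sign belonged to Becn1, Atg5, Atg7 and Ctsb, which had not been called. Becn1 was at −0.059 with median-ratio scaling, −0.12 with array weights, −0.026 with the GC and length correction and in its replicate block fit, and −0.079 without both libraries that stood apart. Atg5 was at −0.077, −0.26, −0.034 and −0.41 in the same fits, and from −0.20 (without Vehicle replicate 3; −0.11 without KIRA6 replicate 1) to 0.27 (without KIRA6 replicate 3) with 1 library left out. Atg7 was at −0.025 with median-ratio scaling, −0.0054 with the GC and length correction, also in the replicate block, and −0.15 after quantile normalization. Ctsb was at −0.061 with median-ratio scaling and −0.069 with array weights. After median-ratio scaling Atg4b, Npc1, Hexa and Atp6v1h, also not called, lay below 0 as well. The cause of these changes was not tested. Depth limits precision most for Cd68, at 36 to 87 estimated fragments per library.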
